A study of Mus musculus with 8 samples.

Results

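The genes described here are 10 negative regulators of Wnt signalling, chosen by name from the 32728 genes of the count table: the intracellular feedback genes Axin2 and Nkd1, the membrane proteins Rnf43, Znrf3 and Apcdd1, and the secreted inhibitors Notum, Wif1, Dkk2, Dkk3 and Sfrp5. All 10 were found by symbol, each with a single Ensembl identifier, and 9 had enough counts to be tested. Dkk3 did not pass the filter on low counts, and Sfrp5 passed it only through the CTO19 libraries grown without EGF.

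They were measured by poly(A) RNA sequencing in mouse APS organoids, three-dimensional epithelial cultures of colon cancer from C57BL/6 mice that carry CRISPR knockouts of Apc, p53 (Trp53) and Smad4. The 4 groups were apsMC706 in EM for 3 days, apsMC706 in noEGF for 7 days, CTO19 in EM for 3 days and CTO19 in noEGF for 7 days, with 2 libraries each. EM held B27, noggin, galunisertib and EGF, and noEGF was the condition in which EGF was withdrawn from day 0. Noggin binds BMP ligands and galunisertib inhibits the type I TGF-beta receptor. The knockouts are carried by all 4 groups, so no library shows these genes with an intact Apc. Medium cannot be told apart from days in culture, nor line from labelled sex (apsMC706 female, CTO19 male). The labels present the lines as biological replicates but do not say whether the 2 libraries of a group came from separate cultures, so the p-values of comparisons within a line or medium measure the spread between these libraries.

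Wnt ligands bind Frizzled and LRP5/6 receptors, which halts the breakdown of beta-catenin and lets it switch on target genes with TCF/LEF factors. Apc belongs to the complex that marks beta-catenin for breakdown, and its loss keeps the pathway active below the receptors, as in most colorectal tumours. Axin2, Nkd1, Rnf43, Znrf3, Notum and Apcdd1 are themselves Wnt targets and limit the pathway that induces them, while Wif1, Dkk and Sfrp proteins act outside the cell on ligands or receptors.

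Library totals ran from 35650262 to 38953838 counts, and a count of 0 allowed up to 3 counts per library, or 0.0745 to 0.0868 CPM (counts scaled by library size and TMM factor). These limits cover counting error only. Of the 12 colon epithelial markers, Epcam was at 345 to 648 CPM and Cdh1 at 591 to 941 CPM in the 8 libraries, but Krt20 was at 0 to 0.141 CPM and Cdx1 at 0 to 0.108 CPM in every library. Of the 10 colon markers tested, 7 with EGF and 8 without it were lower in CTO19, where 33.8% and 34.3% of all tested genes were. Among them were Cdh17 (1.24 to 7.21 CPM, against 310 to 339 in apsMC706) and Cdx2 (0.861 to 2.30 against 9.23 to 10.3). Krt8 (888 to 990 CPM against 377 to 535) and Krt19 were higher in CTO19 in both media. The 9 fibroblast markers summed to 16.1 to 20.3 CPM in apsMC706 and 32.1 to 40.9 CPM in CTO19, mostly Acta2. Of these, Dcn stood at 0.116 and 0.0843 CPM with EGF and 10.3 and 9.49 without it for CTO19, and at 0 to 0.355 CPM in apsMC706. Col3a1 had 3.81 and 3.90 CPM with EGF and 7.12 and 8.56 without it for apsMC706, and 0 to 0.309 CPM in CTO19, while Col1a2, Lum and Thy1 were at or under 0.0562 CPM in every library. The 8 proliferation markers summed to 3676 to 3732 CPM with EGF and 1410 to 1424 without it for apsMC706, and to 2470 to 2663 and 1509 to 1630 for CTO19. In each line 8 of 8 fell, where 33.1% of all tested genes fell in apsMC706 and 33.3% in CTO19. The 7 Paneth cell markers summed to 48.2 to 50.3 CPM with EGF and 806 to 842 without it for apsMC706. For CTO19 they summed to 18.3 to 21.3 and 82.5 to 106 CPM, and nearly all was Mmp7 in both lines. Pla2g2a had 1.19 and 0.872 CPM with EGF and 33.8 and 33.0 without it for apsMC706, and 0.404 to 1.12 in CTO19. Lyz1, Defa17, Defa24, Ang4 and Mptx2 were at or under 0.106 CPM in every library. Mitochondrial genes held 2.94% to 3.68% of counts with EGF and 4.13% to 5.19% without it. The part of these differences in the values below was not tested. In bulk RNA, a change in the number of cells that express a gene cannot be told apart from a change in RNA per cell. Apc stood at 191 and 198 CPM with EGF and 178 and 177 without it for apsMC706, and at 68.8 and 59.8 with EGF and 78.0 and 78.2 without it for CTO19. Trp53 was at 13.1 to 33.3 CPM and Smad4 at 10.8 to 39.9 CPM. Counts per gene do not show the edited bases, so these levels check nothing about the knockouts.

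Of the 10 Wnt regulators, 8 rose from EM to noEGF over both lines (edgeR quasi-likelihood test, adjusted p under 0.05), where 48.8% of all 16719 tested genes passed in either direction and 25.5% as higher. Dkk3 was not tested. Sfrp5 could be tested only because it was high in 1 group, so its tests were selected for and it is described by its counts. Without it the median log2 fold change was 1.893, against 0.033 over all tested genes. The 10 genes were chosen with earlier results of these data known, so this contrast with all genes is a description only. The secreted inhibitors Wif1, Dkk2 and Notum rose 6.91-fold, 6.47-fold and 3.83-fold, the membrane proteins Apcdd1, Rnf43 and Znrf3 by 3.60-fold, 2.06-fold and 1.40-fold, and the intracellular Nkd1 and Axin2 by 4.54-fold and 1.31-fold, while Sfrp5 had counts above the limit only in CTO19. Counted without Sfrp5, 8 of 8 passed as higher in CTO19, where 68% of all genes passed and 34.7% as higher. In apsMC706 5 of 8 passed as higher and 0 as lower, where 67.2% of all genes passed, 34.1% as higher and 33.1% as lower. Axin2, Znrf3 and Notum did not pass in apsMC706, but did, for a count of 8, without CTO19 noEGF replicate 1 (adjusted p = 3.41e-05, 1e-07 and 6.47e-05) or 2 (3.61e-05, 1.28e-07 and 7.86e-05). These 2 libraries enter the spread shared by the 4 groups. When the counts of the 2 libraries in a group were added up, so that the line became the unit of replication, the count over both lines was 1 (Dkk2, adjusted p = 0.0406), beside 84 of 18170 genes in all.

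**Figure D1:**
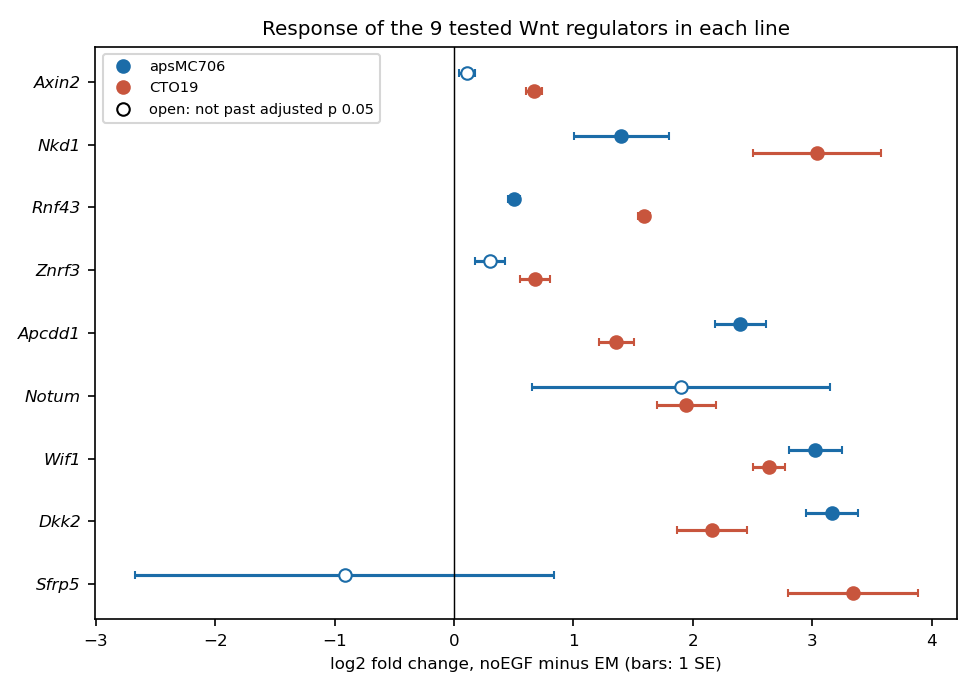
Log2 fold change of noEGF minus EM (x axis) for the 9 tested genes in apsMC706 (blue) and CTO19 (red), with bars of 1 SE from the model of the 4 group means and open points where the adjusted p was not under 0.05. All points except that of Sfrp5 in apsMC706 lie to the right of 0, and the genes with the larger response differ between the lines.

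Axin2, the scaffold of the complex that breaks down beta-catenin and a common readout of Wnt activity (ENSMUSG00000000142, chromosome 11, 108920349 to 108950783 in mm10), was the most abundant of the 10 genes in every group when counted per exon length. In apsMC706 it stood at 308 and 302 CPM with EGF and 332 and 327 CPM without it. The CTO19 values were 229 and 232 CPM with EGF and 335 and 399 CPM without it. The libraries of the media lay apart in both lines, by little in apsMC706, where the test did not pass (log2 fold change 0.11, SE 0.0668, 95% interval -0.04 to 0.261, adjusted p = 0.173), and clearly in CTO19 (0.67, SE 0.0673, adjusted p = 1.13e-05). Over both lines the log2 fold change was 0.39 (SE 0.126, adjusted p = 0.0357), a call that was lost without CTO19 EM replicate 1 (adjusted p = 0.108) or 2 (0.106) and with the replicate block (0.0614). Axin2 shares 209 exonic bases with the antisense gene Gm11670, whose reads cannot be told apart from it, because the kit does not mark strand.

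Nkd1 binds Dishevelled and dampens the signal inside the cell (ENSMUSG00000031661, chromosome 8, 88521354 to 88594884). It was far lower in CTO19 than in apsMC706 in both media. For apsMC706 its values were 85.3 and 91.3 CPM with EGF, against 240.2 and 227 CPM without it. For CTO19 they were 7.09 and 8.12 CPM with EGF, against 37.6 and 87.4 CPM without it. No library of noEGF overlapped those of EM within a line, and the highest CTO19 library only reached the range of apsMC706 in EM. The log2 fold change was 1.40 in apsMC706 (SE 0.396, adjusted p = 0.0344) and 3.04 in CTO19 (SE 0.535, adjusted p = 0.00735). The call in apsMC706 was lost without any 1 of the 4 apsMC706 libraries or either CTO19 EM library (adjusted p = 0.0686 to 0.15), and held without either CTO19 noEGF library. That in CTO19 was lost without CTO19 EM replicate 1 (0.0544) or 2 (0.052), and the value dropped to 2.32 without CTO19 noEGF replicate 2.

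Rnf43 and Znrf3 are related membrane ubiquitin ligases that clear Frizzled from the cell surface, and R-spondins relieve this through Lgr4, Lgr5 and Lgr6. Rnf43 (ENSMUSG00000034177, chromosome 11, 87662722 to 87735539) stood at 229.9 and 236 CPM with EGF and 331 and 329 without it for apsMC706, and at 82.8 and 84.2 with EGF and 236 and 266 without it for CTO19. Its EM level was thus low in CTO19, and its noEGF level there reached the EM level of apsMC706. Rnf43 rose in both lines, by 0.50 on the log2 scale in apsMC706 (SE 0.0484, adjusted p = 3e-07) and by 1.59 in CTO19 (SE 0.0509, adjusted p = 6.07e-12).

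Znrf3 (ENSMUSG00000041961, chromosome 11, 5276324 to 5444847) had smaller fold changes than its relative in both lines. The apsMC706 libraries gave 82.8 and 84.9 CPM with EGF, and 104 and 102 without it. The CTO19 libraries gave 65.7 and 61.6 CPM with EGF, and 88.0 and 115 without it. The media did not overlap in either line. The log2 fold change was 0.30 in apsMC706 (SE 0.125, 95% interval -0.016 to 0.612, adjusted p = 0.0836) and 0.68 in CTO19 (SE 0.128, adjusted p = 0.00448), the latter lost without CTO19 EM replicate 1 (0.0521) or 2 (0.0725). Per exon length, the ratio of Rnf43 to Znrf3 was 3.34 and 3.35 in apsMC706 in EM and 3.82 and 3.89 in noEGF. In CTO19 it was 1.52 and 1.65 in EM and 3.23 and 2.78 in noEGF. The ratio was thus lower in the CTO19 EM libraries than in the other 6.

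Apcdd1 is a membrane glycoprotein that binds Wnt ligands and LRP5 (ENSMUSG00000071847, chromosome 18). Unlike Nkd1 it was higher in CTO19 in both media. Its apsMC706 values were 5.11 and 5.45 CPM with EGF, then 28.7 and 26.9 without it. Its CTO19 values were 42.9 and 43.7 CPM with EGF, then 94.5 and 127 without it. All noEGF libraries of apsMC706 lay below the EM libraries of CTO19. Apcdd1 rose 5.27-fold in apsMC706 (log2 fold change 2.40, SE 0.212, adjusted p = 0.000166) and 2.56-fold in CTO19 (1.36, SE 0.146, adjusted p = 0.000442).

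**Figure D2:**
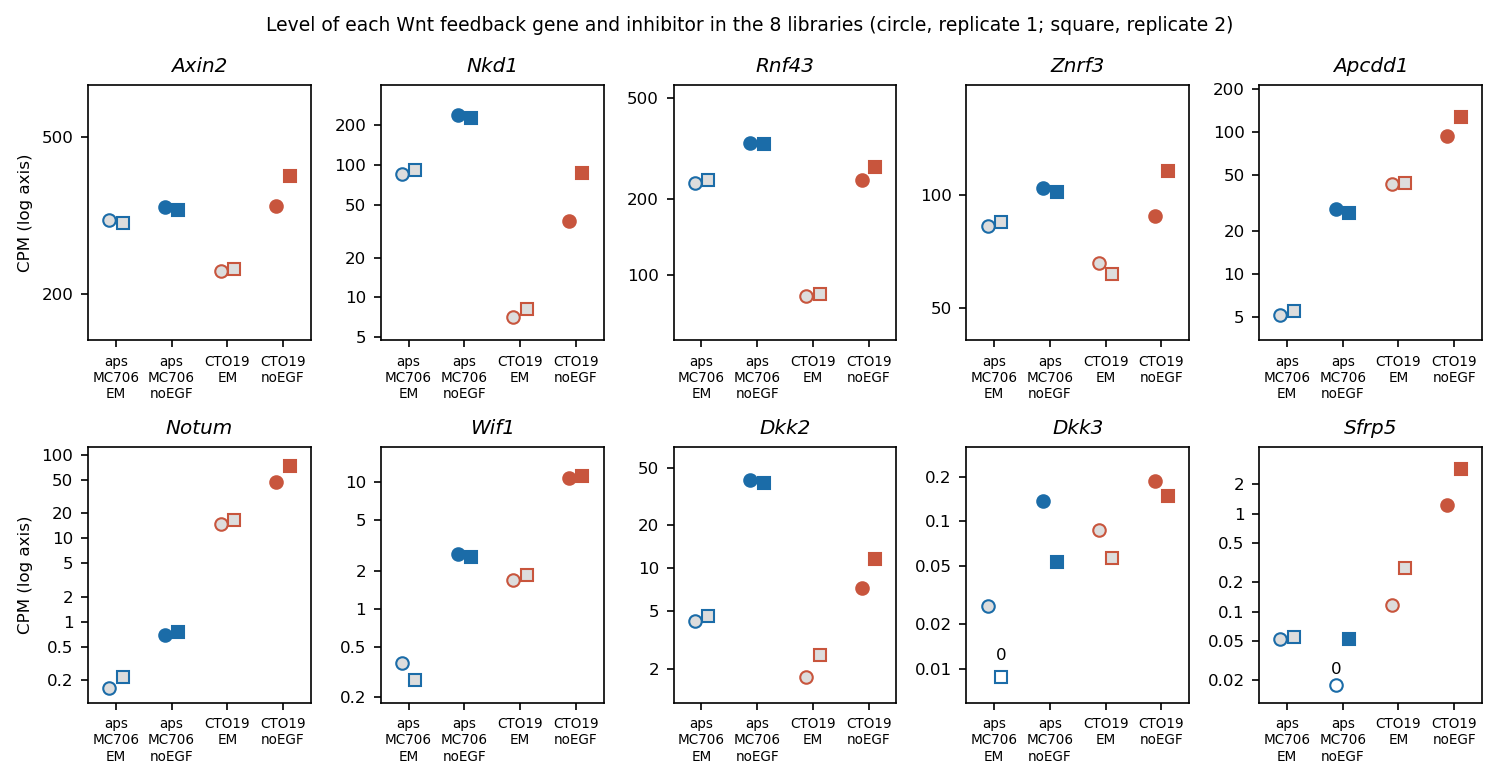
CPM of each gene (log axis, with its own range in each panel) in the 8 libraries, by line and medium, with replicate 1 as circles, replicate 2 as squares, grey fill for EM and open points marked 0 for a library with no count. Rnf43, Nkd1, Dkk2 and Znrf3 in EM are higher in apsMC706, while Apcdd1, Notum, Wif1 and Sfrp5 in noEGF are higher in CTO19.

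Notum is a secreted enzyme that removes the lipid by which Wnt proteins bind Frizzled (ENSMUSG00000042988, chromosome 11, 120653788 to 120661175). It was abundant in CTO19 and scarce in apsMC706. The apsMC706 libraries held 6 and 8 counts in EM and 25 and 28 counts in noEGF, or 0.159, 0.218, 0.682 and 0.740 CPM. In CTO19 Notum stood at 14.8 and 16.7 CPM with EGF, and at 47.0 and 74.2 CPM without it. The media lay apart in both lines, and every CTO19 library lay above every apsMC706 library. In CTO19 Notum rose 3.86-fold (log2 fold change 1.95, SE 0.251, adjusted p = 0.00165). In apsMC706 the fold was of like size but uncertain (1.90, SE 1.25, 95% interval -1.398 to 5.201, adjusted p = 0.245). The ratio of its summed apsMC706 counts, 53 to 14, was 3.79 with an exact interval of 2.07 to 7.39 that covers counting error only. Of its 2408 exonic bases, 708 are shared with the antisense gene Notumos and 210 with Myadml2os, whose reads cannot be told apart from it. A fit on the 4 apsMC706 libraries alone took its spread from those libraries, and there Notum (adjusted p = 4.81e-06), Axin2 (4.3e-06) and Znrf3 (1.48e-18) passed with the log2 fold changes 1.90, 0.113 and 0.301.

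Wif1 binds Wnt ligands outside the cell (ENSMUSG00000020218, chromosome 10, 121033960 to 121100650). It was scarce with EGF and rose in both lines. In apsMC706 it had 0.370 and 0.272 CPM with EGF, and 2.73 and 2.56 without it. In CTO19 it had 1.68 and 1.85 CPM with EGF, and 10.8 and 11.2 without it. The groups did not overlap within a line or within a medium, and CTO19 was higher in each medium. Wif1 rose 8.13-fold in apsMC706 (log2 fold change 3.02, SE 0.222, adjusted p = 1.3e-08) and 6.22-fold in CTO19 (2.64, SE 0.133, adjusted p = 3.87e-10). The difference between these responses did not pass (-0.39, 95% interval -1.01 to 0.236, adjusted p = 0.314).

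Dkk2 binds LRP5 and LRP6 (ENSMUSG00000028031, chromosome 3, 132085292 to 132180304), and it was the secreted inhibitor with the highest level per exon length in apsMC706. There it had 4.31 and 4.63 CPM with EGF, and 41.2 and 39.1 without it. The CTO19 libraries had 1.74 and 2.50 CPM with EGF, and 7.27 and 11.7 without it. The libraries of all 4 groups lay apart from each other. Dkk2 rose 8.97-fold in apsMC706 (log2 fold change 3.17, SE 0.221, adjusted p = 2.61e-05) and 4.47-fold in CTO19 (2.16, SE 0.296, adjusted p = 0.000838).

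Sfrp5, a soluble protein with a Frizzled-like domain that binds Wnt ligands (ENSMUSG00000018822, chromosome 19, 42197971 to 42202252), had its highest counts in CTO19 without EGF. The apsMC706 libraries held 2 and 2 counts in EM and 0 and 2 in noEGF, all under the limit of 3 counts. The CTO19 libraries held 4 and 10 counts in EM and 46 and 114 in noEGF, or 0.116, 0.281, 1.24 and 2.83 CPM. The ratio of its summed CTO19 counts, 160 to 14, was 10.4 with an exact interval of 5.99 to 19.4. Replicate 2 held the larger count in both CTO19 groups. In noEGF the ratio of CTO19 to apsMC706, from 160 and 2 counts, was 77.0 with an exact interval of 21.0 to 641. Both intervals cover counting error only.

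Dkk3, a divergent member of the Dickkopf family (ENSMUSG00000030772, chromosome 7, 112116017 to 112159057), was scarce throughout. It had 1 and 0 counts in apsMC706 in EM, 5 and 2 in noEGF, 3 and 2 in CTO19 in EM and 7 and 6 in noEGF. In each line both noEGF libraries held more counts than both EM libraries, but no test of Dkk3 passed at this depth. With no filter on low counts its log2 fold change over both lines was 1.60 (SE 0.585, adjusted p = 0.0701).

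Dkk2 made up most of the secreted group in apsMC706 and Notum in CTO19, in both media. Levels per exon length are given here as RPKM (CPM per kilobase of merged exons). For apsMC706 the 5 genes summed to 1.42 and 1.48 RPKM with EGF and to 12.56 and 11.97 RPKM without it. For CTO19 they summed to 7.40 and 8.52 RPKM with EGF and to 26.7 and 40.1 RPKM without it. Dkk2 made up 82.1% and 84.4% of that sum in apsMC706 in EM and 88.5% and 88.2% in noEGF. In CTO19 its share was 6.33% to 7.92%, and Notum made up 83.1% and 81.2% in EM and 73.2% and 76.8% in noEGF. In apsMC706 Notum was at 2.26% to 6.11% of the sum. Wif1 held 7.57% to 16.8% in the 8 libraries.

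**Figure D3:**
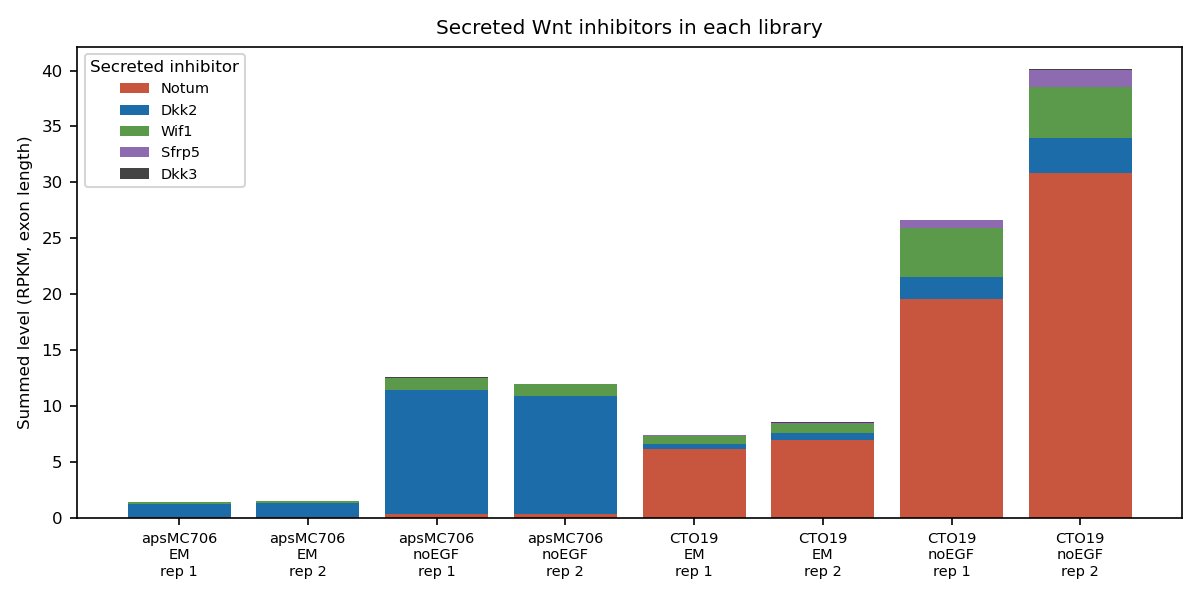
Summed level of the 5 secreted inhibitors in RPKM (y axis, from 0) in each library, stacked by gene. Dkk2 (blue) fills most of each apsMC706 bar and Notum (red) most of each CTO19 bar, and the noEGF bars are the taller ones in both lines.

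Ordered by RPKM, the 10 genes took different places in the lines. In apsMC706 in EM, Axin2 (55.4 ± 0.725, mean and SD of 2 libraries) stood above Rnf43 (35.5 ± 0.677), Nkd1 (19.4 ± 0.934), Znrf3 (10.6 ± 0.184), Dkk2 (1.21 ± 0.0606), Apcdd1 (0.410 ± 0.0187), Wif1 (0.132 ± 0.0286), Notum (0.0782 ± 0.0174), Sfrp5 and Dkk3, with no overlap between neighbours. In noEGF the order of the first 4 in apsMC706 was Axin2, Nkd1, Rnf43 and Znrf3, and the libraries of Nkd1 (51.2 ± 2.09) and Rnf43 (50.4 ± 0.229) overlapped. In CTO19 in EM, Axin2 (41.8 ± 0.352) was followed by Rnf43 (12.7 ± 0.153), Znrf3 (8.06 ± 0.375), Notum (6.54 ± 0.54), Apcdd1 (3.36 ± 0.0418) and Nkd1 (1.67 ± 0.159), which thus ranked sixth, below a secreted inhibitor. In CTO19 in noEGF, Axin2 (66.6 ± 8.2) and Rnf43 (38.3 ± 3.22) were followed by Notum (25.2 ± 7.98), and the libraries of Nkd1 (13.7 ± 7.72) and Znrf3 (12.9 ± 2.45) overlapped. Axin2, Nkd1, Rnf43 and Znrf3 therefore stood above the secreted genes in apsMC706, while in CTO19 without EGF the mean of Notum stood above those of Nkd1 and Znrf3.

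The responses of the lines were then compared with each other, as the difference of the log2 fold changes (CTO19 minus apsMC706). Of the 8 genes without Sfrp5 3 passed, 2 as higher and 1 as lower, a share below the 56% of all genes that did (30.4% as higher and 25.6% as lower). Axin2 (0.56, SE 0.0948, adjusted p = 0.000631) and Rnf43 (1.09, SE 0.0698, adjusted p = 1.03e-08) responded more in CTO19, and Apcdd1 (-1.04, SE 0.265, adjusted p = 0.0202) responded more in apsMC706. The call of Axin2 was lost without CTO19 EM replicate 1 (0.0566) or 2 (0.0508). That of Apcdd1 was lost without apsMC706 EM replicate 1 (0.0701) or 2 (0.0541) and CTO19 EM replicate 1 (0.107) or 2 (0.115). The differences for Nkd1 (1.64, 95% interval -0.212 to 3.491), Dkk2 (-1.005, -2.007 to -0.003) and Znrf3 (0.38, -0.068 to 0.827) had adjusted p of 0.112, 0.0822 and 0.128. With limma-voom these 3 passed as well (adjusted p = 0.0307, 0.0316 and 0.0426). Which genes passed also changed with the library left out. For Nkd1 the difference was 2.04 and 0.83 without CTO19 noEGF replicate 1 and 2.

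Between the lines in EM, 8 of the 8 genes without Sfrp5 passed, 3 as higher in CTO19 and 5 as lower, where 71.3% of all genes did (37.5% as higher and 33.8% as lower). Nkd1 was 11.6-fold lower in CTO19 (log2 -3.54, SE 0.528, adjusted p = 0.00379), Rnf43 2.79-fold lower (-1.48, SE 0.0509, adjusted p = 1.61e-12), Dkk2 2.10-fold lower (adjusted p = 0.0289), Axin2 1.33-fold lower (adjusted p = 0.000373) and Znrf3 1.32-fold lower (adjusted p = 0.0347). Notum was 82.4-fold higher in CTO19 (6.36, SE 0.621, adjusted p = 0.00048), Apcdd1 8.20-fold (3.04, SE 0.203, adjusted p = 4.15e-05) and Wif1 5.44-fold (adjusted p = 3.08e-07). The calls of Axin2, Dkk2 and Znrf3 were lost without CTO19 EM replicate 1 (0.0581, 0.195 and 0.146) or 2 (0.05, 0.0822 and 0.216), and those of Dkk2 and Znrf3 without apsMC706 EM replicate 1 (0.079 and 0.0778) or 2 (0.104 and 0.0989).

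In noEGF 6 of 8 passed, near the 80% of all genes that did: 3 were higher in CTO19 and 3 lower, where 45.7% and 34.3% of all genes were. The median log2 difference of all genes was 0.129. Notum (85.0-fold), Apcdd1 (3.99-fold) and Wif1 (4.16-fold) were again higher in CTO19, and Nkd1 (3.72-fold), Dkk2 (4.22-fold) and Rnf43 (1.31-fold) were lower. Axin2 and Znrf3, which were lower in CTO19 in EM, had log2 differences of 0.16 (95% interval 0.005 to 0.306, adjusted p = 0.055) and -0.02 (-0.329 to 0.292, adjusted p = 0.898) in noEGF. Both values changed with 1 library: without CTO19 noEGF replicate 2 they were -0.06 and -0.31, and the latter passed (2.87e-05), while without CTO19 noEGF replicate 1 Axin2 passed at 0.19 (0.000408). The call of Nkd1 was lost in a fit on the 4 noEGF libraries alone (0.079), and its log2 difference of -1.90 was -2.72 without CTO19 noEGF replicate 2.

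The 2 CTO19 libraries without EGF differed from each other in these genes. All 8 genes without Sfrp5 were higher in replicate 2, against 48.7% of all tested genes. The log2 differences were 1.21 for Nkd1, 0.68 for Dkk2, 0.66 for Notum and 0.43 for Apcdd1. For Znrf3, Axin2, Rnf43 and Wif1 they were 0.39, 0.25, 0.17 and 0.04. Sfrp5, which passed the filter only through this group, differed by 1.16. A difference at least as large as that of Nkd1 was found in 0.706% of tested genes, and as that of Notum in 3.37%. In the other groups, counted with Sfrp5, 7 (apsMC706 EM), 2 (apsMC706 noEGF) and 8 (CTO19 EM) of 9 were higher in replicate 2. Sfrp5 was among them in each, on 0 to 10 counts per library. The rise in CTO19 was seen in both libraries: each of the 8 genes without Sfrp5 was higher in either noEGF library than in both EM libraries.

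**Figure D4:**
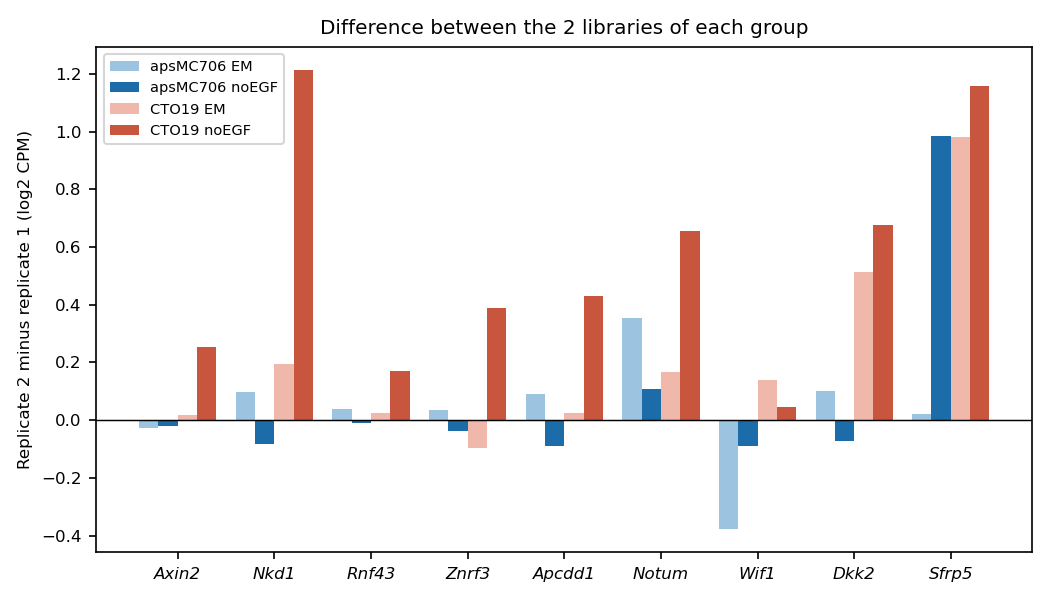
Replicate 2 minus replicate 1 in log2 CPM (y axis) for the 9 tested genes, with a bar for each of the 4 groups. The dark red bars of CTO19 noEGF are all above 0 and reach 1.21 for Nkd1, while those of Sfrp5 in apsMC706 noEGF and CTO19 EM rest on 0 to 10 counts.

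Other genes of the pathway were taken from 4 lists. Of 22 further Wnt inhibitors 13 were tested, but 6 of these (Dkk4, Nkd2, Shisa2, Kremen2, Sostdc1 and Dact1) passed the filter only through CTO19 noEGF, so their tests were selected for. Of the other 7, 4 rose (Igfbp4, Kremen1, Tpbg and Dact3) and 0 fell over both lines, where 25.5% of all genes rose and 23.3% fell. In apsMC706 4 of the 7 rose, where 34.1% of all genes did. In CTO19 2 rose and 1 fell, where 34.7% of all genes rose and 33.3% fell. In CTO19, Dkk4, a Dickkopf antagonist, went from 0.114 ± 0.00241 to 6.15 ± 0.859 CPM, the Nkd1 relative Nkd2 from 0.227 ± 0.116 to 2.52 ± 0.471 CPM, and Shisa2, which retains Frizzled inside the cell, from 0.0707 ± 0.059 to 1.93 ± 0.257 CPM (mean and SD, n = 2). All 3 had 0 counts in the 4 apsMC706 libraries. Kremen2 held 6 and 80 summed counts in CTO19 with and without EGF, and 4 and 5 in apsMC706, and Sostdc1 held 7 and 35, and 0 and 1. Igfbp4, another of the 22 listed inhibitors, was abundant in the other line. It had 47.0 ± 2.29 CPM with EGF and 101 ± 2.95 without it for apsMC706. For CTO19 it had 0.371 ± 0.00782 and 0.231 ± 0.0601 CPM (adjusted p = 0.0424 over both lines). The Dickkopf co-receptor Kremen1 had means of 25.6 CPM with EGF and 36.7 without it for apsMC706, and of 86.2 and 99.1 for CTO19 (adjusted p = 0.00645 over both lines). Tpbg, a membrane protein that restrains Wnt signalling, had 10.8 and 20.3 CPM for apsMC706 and 25.1 and 32.2 for CTO19 (adjusted p = 0.00549 over both lines), and Dact3 rose 1.92-fold (0.0286), from group means of 0.160 to 0.428 CPM for apsMC706 and of 0.614 to 0.989 for CTO19. Dact2 (adjusted p = 0.936), Dkkl1 (0.109) and Trabd2b (0.054), a protease that inactivates Wnt proteins, did not pass over both lines, and Trabd2b fell 2.12-fold in CTO19 (0.00517). Sfrp2 was not tested, with 10 and 28 counts in CTO19 with and without EGF. Dkk1, Sfrp1, Sfrp4, Frzb, Sost and Cer1 had at most 6 counts in any group.

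Of 25 other Wnt targets 23 were tested, and 11 rose and 3 fell over both lines (median 0.349), where 25.5% of all genes rose and 23.3% fell. Aqp4, 1 of the 11, passed the filter only through apsMC706 noEGF, and without it 10 of 22 rose. Ephb3, a receptor that positions crypt cells, had 48.4 ± 0.688 CPM with EGF and 97.1 ± 2.84 without it for apsMC706, and 68.1 ± 2.44 and 111 ± 0.957 for CTO19 (log2 fold change 0.85, adjusted p = 0.000194). The protease Mmp7 (8.98-fold) and the transcription factor Prox1 (7.06-fold) rose as well, and the CTO19 noEGF libraries of Prox1 lay far apart (29.9 ± 18.3 CPM). The TCF factor Tcf7 (-0.41), the Myc target Cdca7 (-0.42) and Ephb2 (-0.24) fell on the log2 scale. Of 22 receptors and R-spondin genes 18 were tested, and 6 rose and 1 fell (median 0.146), where 25.5% of all genes rose and 23.3% fell. The share that passed in either direction was below the 48.8% of all genes. In apsMC706 6 rose and 4 fell, and in CTO19 10 rose and 4 fell. The Frizzled genes Fzd1 (2.94-fold) and Fzd7 (1.39-fold) and the receptor kinase Ror1 (1.83-fold) rose and Ryk fell (1.14-fold lower). Of 26 genes of the destruction complex and the nuclear effectors 26 were tested, and 9 rose and 1 fell (median 0.253). The share that passed in either direction was again below 48.8%, beside 25.5% of all genes that rose and 23.3% that fell. Apc2 and Pygo1 passed the filter only through CTO19 noEGF, and without them 8 of 24 rose. In CTO19 18 of these 24 rose and 1 fell, where 34.7% of all genes rose and 33.3% fell. In apsMC706 11 of the 24 rose and 7 fell, where 34.1% and 33.1% of all genes did. Bcl9, a beta-catenin coactivator, was 1.52-fold, the Apc partner Amer1 1.58-fold and the ubiquitin ligase adaptor Btrc 1.41-fold higher, and the kinase Gsk3a was 1.16-fold lower.

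For each tested gene, the other gene with the nearest profile over the 8 libraries was found among the 9796 genes whose log2 CPM averaged at least 3, as the root mean square distance of log2 CPM after each profile was centred on its mean. Tmem131l was nearest to both Axin2 (distance 0.0487) and Znrf3 (0.0892), and Serinc5 to Rnf43 (0.075). Serinc5 was at 111 ± 2.05 and 146 ± 6.12 CPM in apsMC706 and 41.8 ± 0.0146 and 125 ± 9.21 in CTO19, in EM and noEGF. The nearest profiles of the other genes were farther away: Edn1, the vasoconstrictor peptide endothelin, for Apcdd1 (0.208), Lgals3bp for Dkk2 (0.239), Clca3b for Wif1 (0.281), Ptpro, a receptor phosphatase, for Nkd1 (0.338), Sbsn, an epidermal secreted protein, for Notum (0.352) and Adcy1, an adenylate cyclase, for Sfrp5 (0.404). Sbsn had means of 2.50 and 10.99 CPM for apsMC706 and of 136 and 544 CPM for CTO19, with and without EGF.

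The genes lie on 7 chromosomes, with 4 of 10 (Axin2, Rnf43, Znrf3 and Notum) on chromosome 11, which holds 7.8% of tested genes. RefSeq start sites in GRCm38.p6 were used for 6 of the 10 genes: Axin2, Nkd1, Rnf43 (2 starts), Wif1, Dkk2 and Sfrp5. The unmatched genes were Notum, Znrf3, Dkk3 and Apcdd1. The 250 bases before the start are shown for the highest of the feedback genes and for the 2 secreted genes with the largest fold changes that passed in both lines. They are written 5′ to 3′ on the gene's strand, that of Wif1 stops 44 bases short, where the annotated gene begins, and capitals mark CTTTG, the short core bound by TCF/LEF factors.
Axin2 (chr11:108920099-108920348, plus strand): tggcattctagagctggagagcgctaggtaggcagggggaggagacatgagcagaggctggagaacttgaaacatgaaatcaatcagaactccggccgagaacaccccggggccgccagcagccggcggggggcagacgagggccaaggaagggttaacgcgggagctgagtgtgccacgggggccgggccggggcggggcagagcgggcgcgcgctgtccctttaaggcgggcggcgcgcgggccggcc
Wif1 (chr10:121033754-121033959, plus strand): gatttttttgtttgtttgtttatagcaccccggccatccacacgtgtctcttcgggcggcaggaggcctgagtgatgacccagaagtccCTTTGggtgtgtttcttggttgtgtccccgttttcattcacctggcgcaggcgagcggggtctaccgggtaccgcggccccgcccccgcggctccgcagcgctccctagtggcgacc
Dkk2 (chr3:132085042-132085291, plus strand): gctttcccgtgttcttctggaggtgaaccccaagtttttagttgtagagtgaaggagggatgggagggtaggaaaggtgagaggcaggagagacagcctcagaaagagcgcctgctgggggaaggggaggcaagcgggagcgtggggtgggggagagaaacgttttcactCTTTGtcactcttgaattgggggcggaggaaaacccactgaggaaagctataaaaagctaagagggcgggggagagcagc
Over the whole 250 bases, the window of Axin2 was 69.2% GC with 24 CpG, that of Wif1 62.8% with 21 CpG, and that of Dkk2 55.6% with 7 CpG, where the median of 32851 RefSeq windows was 52.4% with 6 CpG. Both strands were searched. The letters CTTTG occurred once each in the windows of Wif1, 161 bases before the start, and of Dkk2, 80 bases before it, and in no other of the 7 windows of these genes, where 48.6% of all windows hold them. The longer motif CTTTGA, which contains the shorter one, was in none of the 7 and in 13.8% of all windows. A match is a description of letters and not a bound site, and the lack of one says only that these letters are not in this window.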

How the data were processed

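Poly(A) RNA of 8 libraries was sequenced after 8 amplification cycles, per the labels, with a kit that does not mark strand. Alignment by the authors used STAR 2.7.0a and mm10, per the submitters' processing notes. Counting program, strand setting and annotation release: not given in the sources used here. As deposited, the values were whole-number counts for each Ensembl gene and library. GENCODE M21 (GRCm38) gave names, positions and exon lengths for 32680 of 32728 genes.

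The analysis used edgeR 4.0.16 (R 4.3.3): filterByExpr over the 4 groups (16719 genes, 99.971% of counts), TMM factors, two-sided quasi-likelihood tests with robust moderation, and Benjamini-Hochberg adjustment over all tested genes with a threshold of 0.05. The model over both lines had line and medium as terms, which left 5 residual degrees of freedom. The other comparisons used the 4 group means, which left 4 and share an estimate of the spread. SE is that of the log2 fold change, and 95% intervals use the moderated degrees of freedom. In a test on simulated data, 50 genes per fold were planted among 16435, all with a mean of at least 50 counts. Changes of 2-fold were found for 98% in apsMC706 and 94% in CTO19, 1.5-fold for 82% and 92%, and 1.1-fold for 2% and 0%. These shares do not cover genes with fewer counts, such as Sfrp5 and Dkk3. Few genes were changed in the simulation, whereas 67.2% (apsMC706) and 68% (CTO19) of all tested genes passed in the data. The Benjamini-Hochberg adjustment is stricter where few genes change, so these shares do not carry over to the tests above. Alternatives were other factors, other filters, DESeq2 1.42.0, limma-voom 3.58.1, a replicate block, no line term, summed libraries, only the libraries compared, and each library left out.

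The genes and lists were chosen with earlier results of these data known. All 10 genes are named, as are, from each other list, up to 3 genes per direction of smallest p over both lines. Any further Wnt inhibitor with at least 10 counts over the 8 libraries could be named. Genes that passed the filter only through 1 group were found from the libraries at its cutoff. Dkk1, Sfrp1, Sfrp4, Frzb, Sost and Cer1, Aqp4, Apc2 and Pygo1, and the cell type markers given singly, were chosen after their values were seen.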

Additional observations from a re-analysis of the deposited data

Results flagged for a closer look

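The responses to noEGF differed between the lines for 3 of 8 genes without Sfrp5 (edgeR test of the difference itself, adjusted p under 0.05). This share was below the 56% of all genes that passed this test. The difference, as CTO19 minus apsMC706 on the log2 scale, was 0.56 for Axin2, 1.09 for Rnf43 and -1.04 for Apcdd1. For Rnf43 the response was 0.50 in apsMC706 and 1.59 in CTO19, and the call held in each of the 8 fits that left out a library. The call of Axin2 was lost without CTO19 EM replicate 1 (adjusted p = 0.0566) or 2 (0.0508). That of Apcdd1 was lost without CTO19 EM replicate 1 (0.107) or 2 (0.115) and apsMC706 EM replicate 1 (0.0701) or 2 (0.0541).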

How the results depend on the processing

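Over both lines, 9 Wnt regulators were called with Sfrp5, whose tests were selected for, and 8 of 8 without it. The number was 1 with no line term (1806 of all genes) and 1 with summed libraries (84 of all genes). In apsMC706 the number called was 5, where 67.2% of all genes passed. It was 8 with the DESeq2 Wald test and 8 in a fit on its 4 libraries alone. In CTO19, where 68% of all genes passed, it was 9 with Sfrp5 and 8 of 8 without it. For the difference of the responses, where 56% passed, the number (3) was 5 with no filter on low counts. It was 7 with the DESeq2 Wald test and 7 with limma-voom, and Sfrp5 was among the genes gained in all 3. Fits with a library left out hold 1 library in a group, and calls lost in them are given above for single genes. Values near 0 turned sign: the difference of the Notum responses (0.046) was -0.003 with DESeq2 size factors, -0.028 with upper-quartile factors, -0.039 with no filter, -0.043 with the stricter filter (1 CPM in at least 4 libraries), -0.023 with the DESeq2 Wald test and -0.4 to 0.267 with a library left out. The noEGF line differences of Axin2 and Znrf3 ranged from -0.061 to 0.189 and from -0.313 to 0.075. The cause of these shifts was not tested. Replicate differences correlated across genes at -0.00825 to 0.0485 between groups. They thus showed no shift shared by libraries of the same replicate number, which does not tell how the libraries were made. With the replicate block, the call of Axin2 over both lines was lost (log2 fold change 0.39). Calls were gained for Notum in apsMC706 (1.896) and Axin2 between the lines in noEGF (0.153). The Sfrp5 tests, which were selected for, also passed between the lines in EM (1.811) and for the difference of the responses (4.277). No other call changed. Depth limits Dkk3 and Sfrp5 in apsMC706. Notum also had few counts in apsMC706, but its call there depended on which libraries set the spread. In the edgeR test its adjusted p was 0.245 with all 8 libraries and 4.81e-06 in a fit on the 4 apsMC706 libraries alone.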
